A study of Mus musculus with 3 samples.

Results

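The Wnt signalling genes Wnt4, Wnt5a, Wnt6, Rspo1, Sfrp1, Axin2, Lef1, Ctnnb1 and Fzd1 were followed through the cell classes of the newborn mouse testis. These 9 genes were chosen by symbol out of 27998 genes in the deposited matrix, and all 9 were found in it. The level of each was read per library in Sertoli, stromal, myoid and germ cells as unique molecular identifiers (UMIs) of the gene over all UMIs of that class, on the usual CPM scale, and as the share of cells with at least 1 UMI. The classes were set by other genes. Sertoli cells, the supporting cells of the testis cords, held at least 3 UMIs summed over Amh, Sox9, Cldn11 and Inha and at most 2 over the collagen genes Col1a1, Col1a2, Col3a1 and Dcn. Stromal and myoid cells held a collagen sum of at least 5, and those with at least 8 UMIs of the contractile genes Acta2, Myh11 and Tagln were the myoid cells, which wrap the cords. Germ cells were the 141 cells that the authors placed in their clusters A to E.

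The study is on CDK2 kinase activity and what male germ cells become. Testes were taken from untreated males of postnatal day 3 (3.5 days after birth in the dissection protocol) from crosses of carriers of the YS allele on a background of B6(Cg)-Tyrc-2J/J mixed with FVB/NJ that all groups share. The 3 libraries were Cdk2-WT (Cdk2 +/+), Cdk2-HET (Cdk2 +/YS) and Cdk2-Y15S (Cdk2 YS/YS), 1 for each genotype. The allele was present in the whole animal, so somatic as well as germ cells carried it, and how many mice went into a library was not given in the sources used here. This allele changes one residue, which counts of 3′ tags cannot show, so the genotype labels could not be checked from these data. With 1 library per genotype, differences between genotypes have no replicate check, and no test was made of them. The intervals below cover counting error only, at 95%.

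Wnt proteins are secreted lipid-modified ligands that bind Frizzled receptors with LRP co-receptors. In the canonical branch, binding stops a destruction complex of Axin, APC, GSK3 and casein kinase from marking beta-catenin for degradation, and beta-catenin then acts with TCF/LEF factors at target genes, among them Axin2, which feeds back on the pathway. R-spondins raise the signal by keeping Frizzled receptors on the cell surface, and secreted Frizzled-related proteins such as Sfrp1 bind Wnts outside the cell. In the fetal gonad Wnt4 and Rspo1 are best known for promoting the ovarian fate, while the testis keeps canonical signalling low in its supporting cells.

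The cells were counted at depths that differed little between libraries. The libraries held 5061, 4958 and 4403 cells with 28651691 to 32025077 UMIs each, and 87 barcodes occurred in more than 1 library. After filters the classes held 2380, 2109 and 1510 Sertoli cells, 1498, 1595 and 1679 stromal cells and 655, 834 and 721 myoid cells (wild type, heterozygote and homozygote, the order in which sets of 3 values are given below). There were 69 germ cells of Cdk2-WT, 72 of Cdk2-Y15S and none of Cdk2-HET. The 6 Sertoli markers that the class rule did not use summed to 5586, 5520 and 6305 CPM in Sertoli cells and to 326 to 439 in stromal cells. Germ cells were deeper, with median UMIs of 16653 and 18461.5 per cell against 4954.5 to 6297 in the somatic classes. Fewer transcripts per cell and fewer cells with any transcript cannot be told apart in such sums, so shares of cells are given beside them where counts allow.

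For the gene with a window that carries letters of the TCF/LEF site, and for a feedback target and a ligand that differed between classes, the 250 bases before an annotated start are shown, from RefSeq on GRCm38.p6. Of the 9 genes 7 matched this table, with 11 windows between them. The site was searched on both strands as CTTTGAA or its variant CTTTGAT, and also as CTTTGTA or its variant CTTTGTT, and 14.8% of all 32851 windows of this length held one. Of the 11 windows 1 did, a Lef1 window at chr3:131156044-131156293 on the plus strand, which lies within the span of Lef1 in GENCODE M21. The match, in capitals, starts 147 bases before that start. The Lef1 windows nearest the first base of the gene, from chr3:131110047 and chr3:131110073, held no match, and neither did that from chr3:131112541.
Lef1: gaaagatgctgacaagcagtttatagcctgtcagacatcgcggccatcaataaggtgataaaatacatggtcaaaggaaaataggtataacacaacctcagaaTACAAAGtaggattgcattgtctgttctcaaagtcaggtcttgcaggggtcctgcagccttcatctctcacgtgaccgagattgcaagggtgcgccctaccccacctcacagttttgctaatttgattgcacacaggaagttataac
The windows of Axin2 (chr11:108920099-108920348, plus strand) and Wnt6 (chr1:74771642-74771891, plus strand) lie just before the first base of each gene and held none of those letters. Both are rich in CG pairs, in capitals, with 24 in Axin2 and 28 in Wnt6 against a median of 6 over all windows.
Axin2: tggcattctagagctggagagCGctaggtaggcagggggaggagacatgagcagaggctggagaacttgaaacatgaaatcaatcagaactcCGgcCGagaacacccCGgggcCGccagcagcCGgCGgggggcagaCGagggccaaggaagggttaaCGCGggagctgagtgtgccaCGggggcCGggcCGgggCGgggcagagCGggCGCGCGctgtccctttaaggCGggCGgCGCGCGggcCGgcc
Wnt6: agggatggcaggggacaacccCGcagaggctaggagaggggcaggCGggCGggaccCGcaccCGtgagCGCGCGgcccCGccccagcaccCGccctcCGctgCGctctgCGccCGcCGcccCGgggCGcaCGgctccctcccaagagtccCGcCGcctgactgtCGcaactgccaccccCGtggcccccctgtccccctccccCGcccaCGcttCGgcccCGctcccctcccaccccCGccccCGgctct
A match is only a match of letters, and its absence from such a window says nothing of the factor.

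Wnt6, a ligand, was carried by Sertoli cells and, at a lower level, by stromal cells. Its level in Sertoli cells was 482, 523 and 469 CPM, in stromal cells 248, 256 and 242, and in myoid cells 53.9, 40.6 and 38.0, so the 3 classes did not overlap over the libraries. In Sertoli cells 85.5%, 87.7% and 86.8% of cells held a Wnt6 UMI, and in stromal cells 61.3%, 69.2% and 64.8% did. After thinning each cell to 3000 UMIs these shares were 72.0%, 74.4% and 71.6% in Sertoli cells and 48.4%, 51.2% and 49.2% in stromal cells. As a reading of free Sertoli RNA, Sertoli markers were compared in the same way. Wnt6 in stromal cells stood at 49.0% to 51.7% of its Sertoli level, while the median of the 6 markers stood at 4.11% to 6.15%. Of those markers 2, Nr5a1 and Gata4, genes of several gonadal cell types, were also high in stromal cells, Nr5a1 at 47.5% to 51.7% of its Sertoli level. Stromal cells with no UMI of the 4 Sertoli genes of the class rule held Wnt6 at 248, 244 and 234 CPM, close to all stromal cells. In myoid cells Wnt6 stood at 7.77% to 11.2% of its Sertoli level against a marker median of 2.71% to 3.16%. There Gata4 (32.7% to 37.7%) and Nr5a1 (26.0% to 27.2%) stood above Wnt6, and the other markers reached at most 4.19%.

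Wnt5a, the ligand best known for signalling without beta-catenin, was among the somatic classes highest in stromal and lowest in Sertoli cells. Stromal cells held 100, 90.5 and 89.9 CPM, myoid cells 37.8, 34.7 and 34.3 and Sertoli cells 17.4, 21.4 and 22.8, again with no overlap between classes. The Sertoli level was 17.4% to 25.4% of the stromal level, where the 6 stromal markers not used in the class rule stood at a median of 1.07% to 1.34% and none above 2.19%.

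Wnt4, a ligand that can act through either branch, was found in stromal cells at 21.4, 12.2 and 10.6 CPM and in myoid cells at 22.0, 19.3 and 19.7, and these ranges overlapped. In Sertoli cells it was nearly absent, at 0.846, 0.989 and 0.858 CPM from 9 to 14 UMIs a library. That was 3.96% to 8.11% of the stromal level.

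Rspo1, the R-spondin among them, was mainly a stromal transcript, at 28.7, 26.6 and 33.6 CPM there, 4.56, 3.90 and 3.41 in myoid cells and 0.781, 0.283 and 0.954 in Sertoli cells. Of the stromal cells, 12.3%, 12.8% and 14.5% held a Rspo1 UMI. Within the stroma it went with Dpt and Lum, collagen-binding matrix genes: stromal cells with at least 3 UMIs of Dpt and Lum held Rspo1 at 51.3, 38.9 and 57.0 CPM, and those with none at 18.2, 19.0 and 17.4. Wnt5a showed the same order, at 127, 116 and 124 against 86.7, 72.5 and 64.3. Sfrp1 showed the reverse, at 190, 165 and 167 against 284, 243 and 200. The 5 fetal Leydig markers, all detected in the stromal cells with no Dpt or Lum UMI, summed there to 371, 608 and 469 CPM against 13.2, 14.8 and 20.6 in those with at least 3, and their part in these orders was not tested. This split was chosen after the values of Dpt were seen, and the 2 kinds of stromal cell are described without a test.

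Sfrp1, the secreted inhibitor, was high in stromal and myoid cells and low in Sertoli cells. Its level was 259, 221 and 182 CPM in stromal cells, 135, 106 and 99.6 in myoid cells, and 3.84, 3.39 and 3.15 in Sertoli cells. That Sertoli level was 1.48%, 1.53% and 1.73% of the stromal one. The highest of the 6 stromal markers stood at 1.14%, 1.60% and 2.19%, so Sfrp1 was above all 6 in Cdk2-WT. In Cdk2-HET Lum (1.60% from 22 UMIs) and Pdgfrb (1.59% from 4) were above it, and in Cdk2-Y15S Pdgfrb alone, from 4 UMIs. Fzd1, a Wnt receptor, was low in every class, at 6.64, 6.64 and 8.39 CPM in Sertoli cells, 8.89, 9.56 and 7.98 in stromal cells and 8.85, 12.5 and 15.2 in myoid cells. Sertoli and stromal cells overlapped in Fzd1, as did stromal and myoid cells, while every myoid library was above every Sertoli library.

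Of the intracellular members, Ctnnb1 and Axin2 were lowest in stromal cells among the somatic classes, and Lef1 was nearly absent from all 3. Ctnnb1, which encodes beta-catenin, was at 171, 192 and 213 CPM in Sertoli cells, 137, 176 and 157 in myoid cells and 108, 125 and 118 in stromal cells. Sertoli and myoid cells overlapped, and every stromal library was below both. Axin2, the feedback target, was at 5.73, 4.17 and 6.96 CPM in Sertoli cells, 3.22, 5.54 and 4.72 in myoid cells and 1.55, 2.63 and 3.17 in stromal cells. Every stromal library was again below the others, by a narrow margin against myoid cells, and Sertoli and myoid cells overlapped. Between 0.734% and 4.77% of somatic cells of a class held an Axin2 UMI. Lef1, a TCF/LEF factor, was almost missing from the somatic classes, with 0 to 5 UMIs in a class and library. In germ cells it was at 23.1 and 25.7 CPM in Cdk2-WT and Cdk2-Y15S, in 24 of 69 and 25 of 72 cells.

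**Figure D1:**
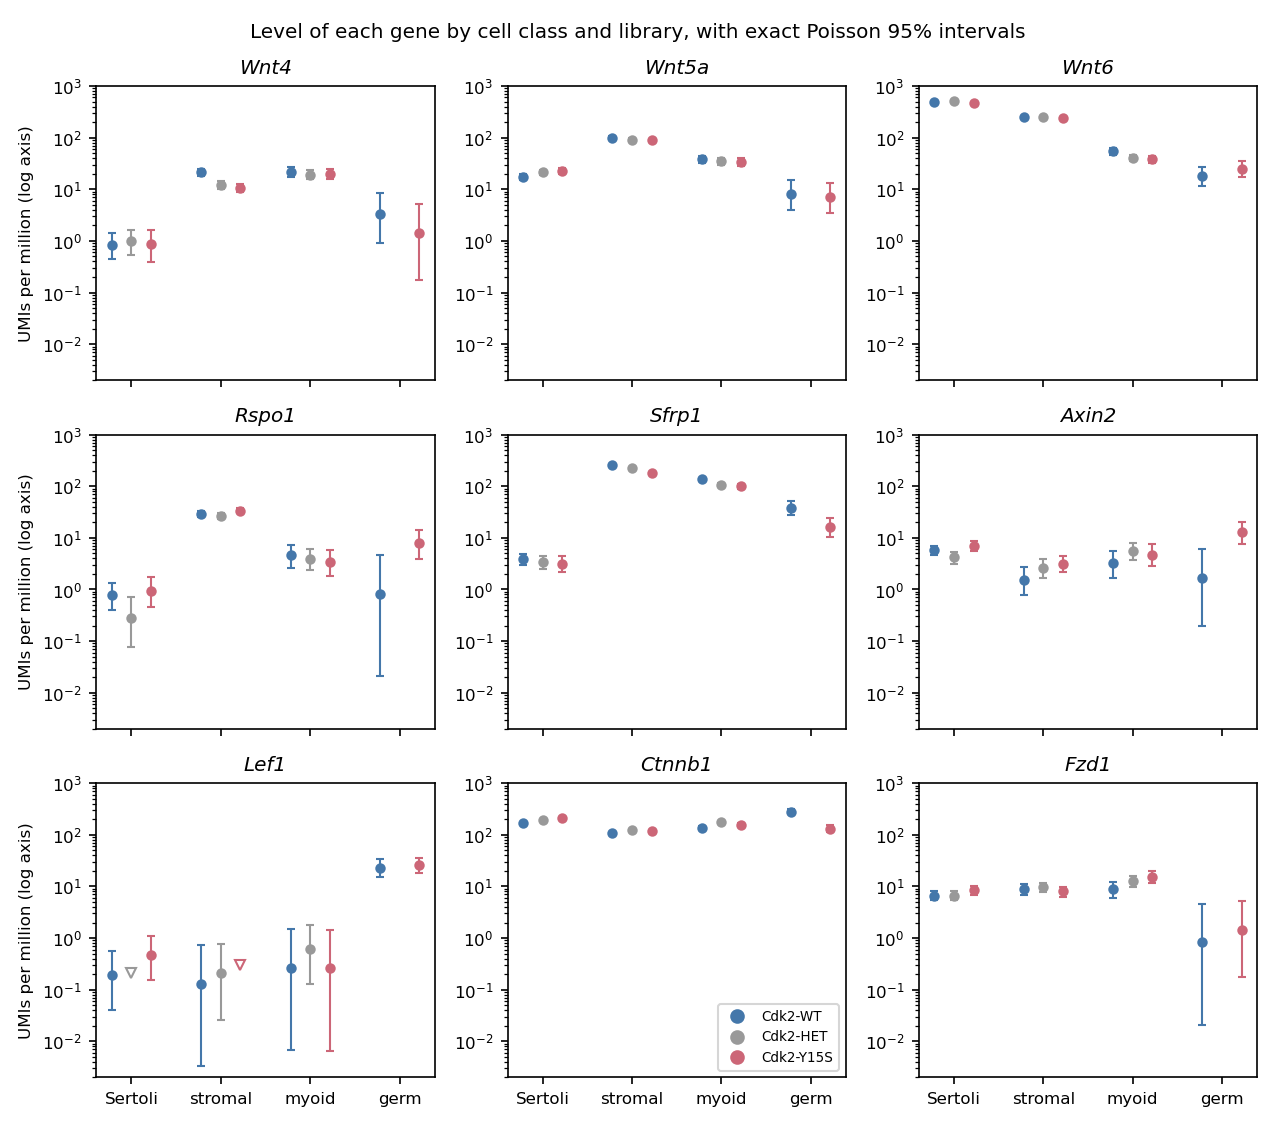
Level of each of the 9 genes, in CPM on a log axis, by cell class; points are libraries (Cdk2-WT blue, Cdk2-HET grey, Cdk2-Y15S red), bars are exact Poisson 95% intervals, and open triangles mark the limit of 3 counts where no UMI was found. Wnt6 steps down from Sertoli to stromal to myoid cells, Sfrp1, Rspo1 and Wnt5a are highest in stromal cells, and Lef1 stands out in germ cells at 23.1 and 25.7 CPM.

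The somatic classes were then compared over the 3 libraries in one fit, with the library as a block. The edgeR quasi-likelihood test ran on 13172 genes with 4 residual degrees of freedom, and a gene was called at a Benjamini-Hochberg adjusted p under 0.05 and at least 1.5-fold. The test shares information on variance across genes, so its p-values rest on more than those 4 degrees. Each SE given was computed from the F statistic of the test. Lef1 was too sparse to enter, so 8 of the 9 members were tested. The classes come from the same 3 testis samples, so the test measures how steady a class difference was over libraries that also differ in genotype.

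Of the 8 members tested, 4 were higher in stromal than in Sertoli cells, where 27.9% of all genes were called higher, and 3 were lower, where 24.6% of all genes were. Sfrp1 was 69.4-fold higher (log2 6.12 ± 0.09, SE, adjusted p = 5.283e-15 by edgeR) and Rspo1 48.2-fold (log2 5.59 ± 0.21, adjusted p = 1.037e-11). Wnt4 rose 17.5-fold and Wnt5a 4.98-fold. Wnt6 was 1.81-fold lower (log2 -0.86 ± 0.08, adjusted p = 2.393e-07), Axin2 2.08-fold lower (log2 -1.06 ± 0.25, adjusted p = 0.00182) and Ctnnb1 1.51-fold lower (log2 -0.59 ± 0.07), which lies at the fold limit. Leaving out Cdk2-Y15S gave log2 -0.53 for Ctnnb1, under that limit. Fzd1, at log2 0.41 ± 0.17, was not called.

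Between myoid and Sertoli cells 5 members were higher and 1 lower, where 27.3% and 24.5% of all genes were called in these directions. Sfrp1 (37.4-fold), Wnt4 (26.0-fold), Rspo1 (6.80-fold), Wnt5a (1.98-fold) and Fzd1 (1.93-fold) were higher in myoid cells, and Wnt6 was 9.82-fold lower (log2 -3.30 ± 0.10, adjusted p = 1.115e-12 by edgeR). Axin2 (log2 -0.10 ± 0.27) and Ctnnb1 (log2 -0.11 ± 0.07) were not called. Between myoid and stromal cells 1 member was higher, where 9.0% of all genes were, and 4 were lower, where 10.3% were. Rspo1 was 7.09-fold, Wnt6 5.42-fold, Wnt5a 2.51-fold and Sfrp1 1.86-fold lower in myoid cells. Axin2 was 1.94-fold higher in myoid cells (log2 0.96 ± 0.31, adjusted p = 0.0315 by edgeR). That Axin2 call was lost without Cdk2-HET (log2 0.83), without Cdk2-Y15S (log2 1.12), without the library block (log2 0.93) and with DESeq2 (log2 0.96).

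The members were then set among 87 genes of the pathway, listed by role with the members included. Of these, 59 had counts enough to be tested. In stromal against Sertoli cells 26 of the 59 were higher, where 27.9% of all genes were, and 15 lower, where 24.6% were. The median log2 fold was 0.47 against -0.01 over all genes. All 8 ligands tested were called, 7 higher and Wnt6 lower, and of the 6 secreted inhibitors tested 4 were higher and 1 lower. Wnt2, a canonical ligand, and Sostdc1, which blocks LRP co-receptors and BMPs, had the largest fold upward. Wnt2 was at 14.7, 8.93 and 18.6 CPM in stromal cells, and 2 UMIs were found in all Sertoli cells (log2 ratio 7.82, interval 6.28 to 11.2). Sostdc1 was at 108, 109 and 72.7 CPM in stromal cells and 0.586, 0.848 and 0.668 in Sertoli cells (log2 7.25 ± 0.18). Sfrp4, a secreted Frizzled-related protein, and Fzd6, a receptor, had the largest fold downward. Sfrp4 was at 15.2, 21.9 and 10.6 CPM in Sertoli cells and at most 0.946 in stromal cells (log2 -4.60 ± 0.26), so the 2 related inhibitors Sfrp1 and Sfrp4 lay in different classes. Fzd6 was at 2.80, 6.85 and 5.91 CPM in Sertoli cells and at most 0.920 in stromal cells (log2 -3.72 ± 0.46).

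In myoid against Sertoli cells 27 of the 59 pathway genes were higher, where 27.3% of all genes were, and 12 lower, where 24.5% were. The median log2 fold was 0.52 against 0.01 over all genes. Dkk3, a Dickkopf-family secreted protein, was at 23.1, 23.6 and 18.4 CPM in myoid cells and 0.456, 0.212 and 1.24 in Sertoli cells (log2 5.40 ± 0.32). Wnt11, a ligand of the branch without beta-catenin, had 17 UMIs in myoid cells and 1 in Sertoli cells (log2 ratio 5.23, interval 3.10 to 11.2). Lgr5, an R-spondin receptor, had 85 UMIs in Sertoli cells and none in myoid cells, at least 8.79-fold lower when 3 counts over all myoid cells are taken as the floor. Sfrp4 had 2 UMIs in myoid cells and 654 in Sertoli cells (log2 ratio -6.34, interval -9.71 to -4.81).

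In myoid against stromal cells 6 of the 59 pathway genes were higher, where 9.0% of all genes were, and 11 lower, where 10.3% were. The median log2 fold was -0.03 against -0.02 over all genes. It was -0.02 with the fold of Lgr5, which had 0 and 4 UMIs, set to 0. None of the 8 ligands was higher and 6 were lower, and none of the 10 genes of the cytoplasmic relay was called. Nkd2, a target gene whose product restrains the Dishevelled proteins, was at 15.8, 17.4 and 13.4 CPM in myoid cells and 3.22, 2.52 and 1.33 in stromal cells (log2 2.81 ± 0.23). Ror1, a receptor of Wnt5a, was at 6.97, 9.85 and 7.87 against 5.28, 5.04 and 4.30 (log2 0.82 ± 0.26). Wnt2 was at 0.805, 2.26 and 0.524 in myoid cells (log2 -3.31 ± 0.40 against stromal cells). Wnt2b had 1 UMI in myoid cells and 37 in stromal cells (log2 ratio -3.52, interval -9.43 to -1.52).

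**Figure D2:**
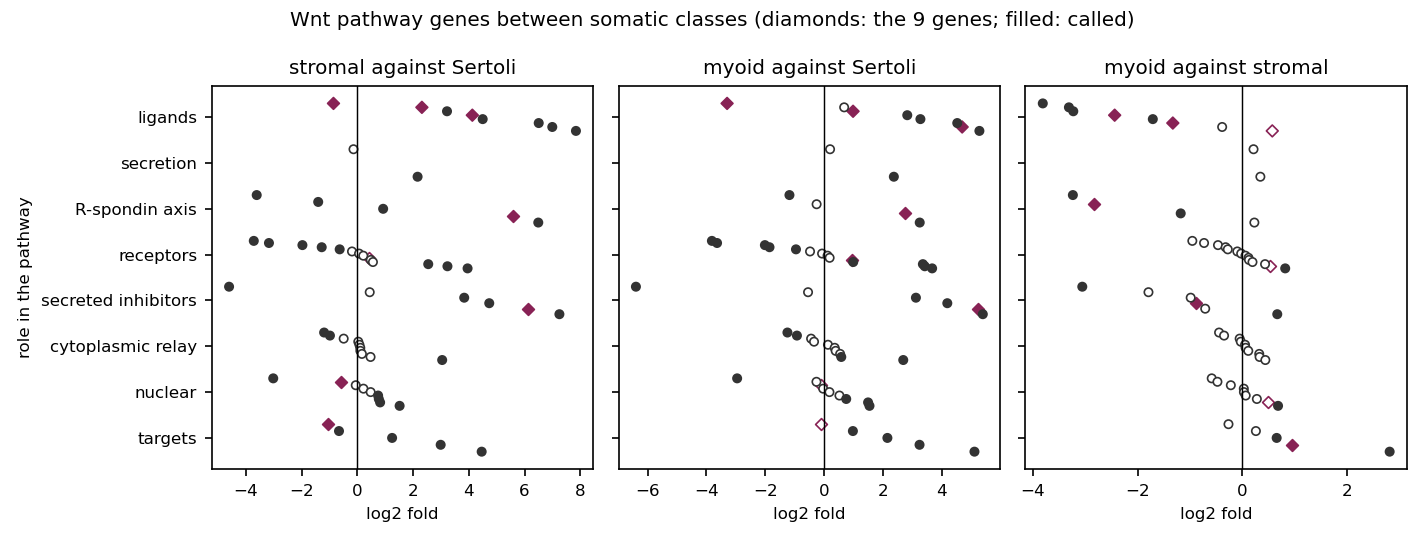
Fitted log2 fold (x axis) of each tested pathway gene, by role, in the 3 comparisons of somatic classes; diamonds are the members, circles the other pathway genes, filled where called and open where not, and Lgr5 is left out of both myoid panels because myoid cells held none. Ligands and secreted inhibitors spread to the right against Sertoli cells, while the cytoplasmic relay lies near 0 in the comparison of myoid with stromal cells.

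Tags come from the 3′ end of each transcript, about 1 per molecule, so levels were not divided by length, and how well each gene is captured can differ between genes. On that scale Csnk1a1, the casein kinase of the destruction complex, had the highest mean over libraries in stromal (258, 285 and 323 CPM), myoid (331, 381 and 410) and germ cells (280 in Cdk2-WT, 252 in Cdk2-Y15S). In single libraries it was not always first: Sfrp1 was at 259 in stromal cells of Cdk2-WT, and Ctnnb1 at 281 in Cdk2-WT germ cells. Wnt6 led in Sertoli cells, ahead of Csnk1a1 (268, 285 and 321) and Ctnnb1. In myoid and germ cells Ctnnbip1, which binds beta-catenin and keeps it from TCF factors, had the next highest mean, at 215, 233 and 185 CPM in myoid cells and 279 and 188 in germ cells.

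The ratio of each mutant library to Cdk2-WT was taken within a class, with 0.5 UMI added to each sum. A ratio was counted where both sums together held at least 50 UMIs, and called where it was at least 1.5-fold with an interval off 0. Both mutant libraries were divided by the same Cdk2-WT library, so their ratios are not independent of each other.

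No member was called in Sertoli cells. Of the 6 members counted in Sertoli cells of Cdk2-Y15S none was higher, where 7.44% of all genes counted were, and none lower, where 3.18% were. In Cdk2-HET the same count was 0 of 6, where 3.10% of genes were higher and 1.88% lower. The Sertoli ratios of Wnt6 were log2 -0.04 (-0.09 to 0.01) in Cdk2-Y15S and 0.12 (0.07 to 0.16) in Cdk2-HET. Ctnnb1 stood at 0.31 (0.23 to 0.39) and 0.17 (0.09 to 0.24), and Wnt5a at 0.39 (0.13 to 0.64) and 0.30 (0.05 to 0.54). Axin2 in all Sertoli cells of Cdk2-Y15S was at log2 0.28 (-0.19 to 0.75), not called. When cycling cells were left out, Axin2 was at 7.64 CPM in the Cdk2-Y15S Sertoli cells that remained, against 4.50 in Cdk2-WT (log2 0.76, called) and 3.91 in Cdk2-HET. In the cycling cells alone its level was lower in Cdk2-Y15S than in Cdk2-WT.

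Wnt4 was the one member called in stromal cells, in both mutant libraries. In Cdk2-Y15S 1 of the 7 members counted was lower, where 3.20% of all genes were, and none was higher, where 6.15% were. In Cdk2-HET 1 of 7 was lower, where 1.96% of genes were, and none higher, where 3.58% were. Wnt4 was at 21.4 CPM in Cdk2-WT, 12.2 in Cdk2-HET and 10.6 in Cdk2-Y15S, with ratios to Cdk2-WT of log2 -0.81 (-1.17 to -0.46) and -1.01 (-1.38 to -0.65). The share of stromal cells with a Wnt4 UMI was 9.55%, 6.46% and 5.60%, or 6.25%, 3.54% and 3.54% after thinning to 3000 UMIs. In level, both mutant libraries were also below Cdk2-WT within each kind of stromal cell. For the kind with Dpt and Lum UMIs each ratio rested on under 50 Wnt4 UMIs, so it was not counted. Stromal cells with at least 3 UMIs of Dpt and Lum held Wnt4 at 13.2, 7.68 and 3.10 CPM and those with none at 25.2, 14.2 and 16. Cells with these UMIs made up 212 of 1498, 327 of 1595 and 425 of 1679 stromal cells, and its part in the difference was not tested. The 7 markers of myoid cells, all 7 detected, summed in stromal cells to 733, 574 and 539 CPM, the same order as Wnt4, and their part in the result was not tested either. In myoid cells themselves the Wnt4 ratios were -0.19 (-0.63 to 0.26) in Cdk2-HET and -0.16 (-0.63 to 0.31) in Cdk2-Y15S.

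Sfrp1 lay below Cdk2-WT in both mutant libraries in stromal and in myoid cells, each time short of 1.5-fold. Its stromal ratios were log2 -0.23 (-0.32 to -0.14) in Cdk2-HET and -0.51 (-0.60 to -0.41) in Cdk2-Y15S, and its myoid ratios -0.34 (-0.52 to -0.16) and -0.44 (-0.63 to -0.24). The share of stromal cells with a Sfrp1 UMI was 60.0%, 60.3% and 51.3%, or 48.7%, 43.3% and 35.5% after thinning. The stromal ratios of Wnt6 stayed within 0.05 of 0 on the log2 scale, at 0.05 (-0.04 to 0.13) and -0.03 (-0.12 to 0.06), and Wnt5a was at -0.14 (-0.29 to -0.00) and -0.15 (-0.30 to -0.01). Rspo1 was at -0.11 (-0.38 to 0.15) and 0.23 (-0.02 to 0.48).

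In myoid cells Fzd1 was called in Cdk2-Y15S. There 1 of the 6 members counted was higher, where 4.36% of all genes were, and none lower, where 3.81% were. Fzd1 was at 8.85 CPM in Cdk2-WT, 12.5 in Cdk2-HET and 15.2 in Cdk2-Y15S, and the ratio of the last to the first was log2 0.77 (0.14 to 1.44). In Cdk2-HET 0 of 6 members were called, where 3.28% of genes were higher and 1.55% lower. Wnt6 in myoid cells was at log2 -0.41 (-0.70 to -0.12) in Cdk2-HET and -0.50 (-0.82 to -0.19) in Cdk2-Y15S, short of 1.5-fold. With 10% of UMIs subtracted as free RNA these became log2 -1.64 and -1.16, both called, and with a looser cell filter log2 -0.09 and -0.37. The Fzd1 call was lost with that filter (log2 0.61) and with stricter class limits (log2 0.69).

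**Figure D3:**
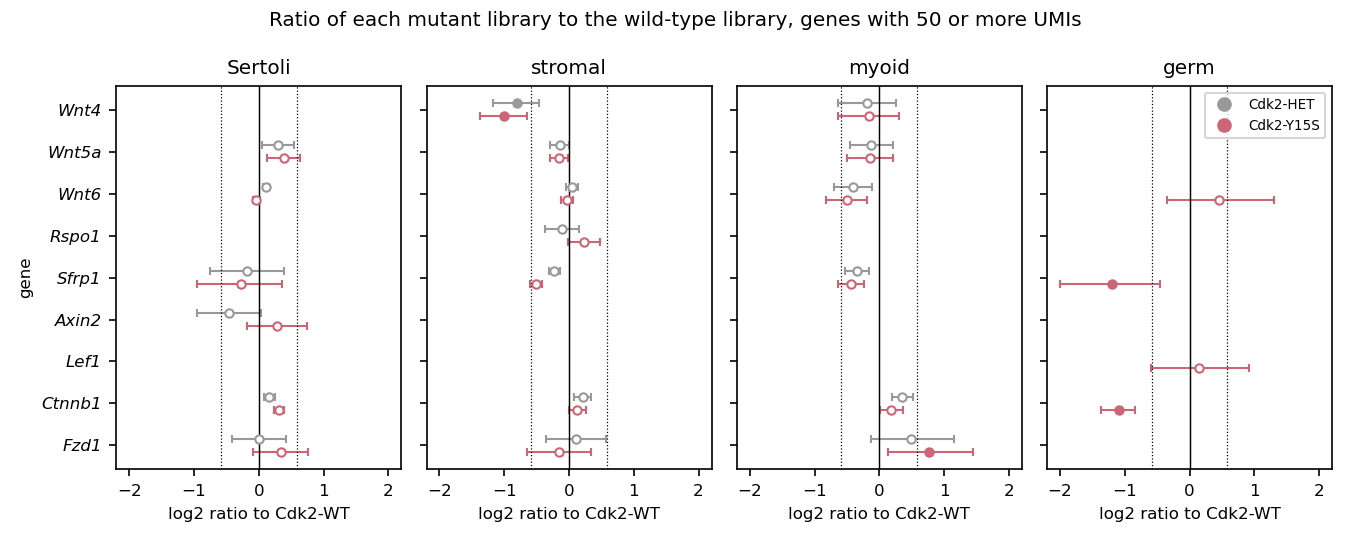
Log2 ratio of Cdk2-HET (grey) and Cdk2-Y15S (red) to Cdk2-WT in each class, for members with at least 50 UMIs in both sums together; bars are conditional exact 95% intervals for counting error, dotted lines mark 1.5-fold and filled points are called. Wnt4 in stromal cells lies left of the dotted line in both libraries, and Ctnnb1 and Sfrp1 do so in germ cells, where Cdk2-HET has no deposited cells.

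In germ cells Ctnnb1 and Sfrp1 were lower in Cdk2-Y15S than in Cdk2-WT. Of the 4 members counted, these 2 were called lower, where 13.2% of all genes counted were, and none was higher, where 10.2% were. Ctnnb1 was at 281 CPM in Cdk2-WT germ cells (252 to 313) and 131 in Cdk2-Y15S (113 to 152), a log2 ratio of -1.10 (-1.36 to -0.84). Of the cells, 69 of 69 and 66 of 72 held it, as did 96.7% and 73.4% of those thinned to 13000 UMIs. By deposited cluster Ctnnb1 was at 288 CPM in cluster A, all of whose 36 cells were Cdk2-WT, 143 in D and 110 in E, whose 37 and 21 cells were all Cdk2-Y15S. Clusters B and C held both genotypes. In B the 28 Cdk2-WT cells were at 264 (223 to 311) and the 6 Cdk2-Y15S cells at 169 (109 to 249), and in C 5 Cdk2-WT cells were at 355 (230 to 524) and 8 Cdk2-Y15S cells at 112 (57.8 to 195). Cdk2-WT was thus the higher in both mixed clusters, with intervals that overlapped in B and not in C. Cluster C also had the highest stromal marker level, 1235 CPM in the wild type and 1873 in Cdk2-Y15S against 131 to 345 elsewhere. Without cluster C the Ctnnb1 ratio was log2 -1.06. At most 10% of UMIs were mitochondrial in 24 and 35 of the germ cells, and among these alone the ratio was log2 -1.48 and Sfrp1, at log2 -1.03, was no longer called. In the same 2 libraries Ctnnb1 of the somatic classes was not lower in Cdk2-Y15S, at log2 0.13 to 0.31. Ulk4, which overlaps Ctnnb1 on the other strand in GENCODE M21, had 14 and 6 UMIs in these germ cells against 341 and 184 of Ctnnb1, and whether the authors counted by strand was not given in the sources used here.

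Sfrp1 was at 37.9 CPM in wild-type germ cells and 16.4 in Cdk2-Y15S, log2 -1.19 (-2.0 to -0.46). Of the cells, 31 of 69 and 17 of 72 held it, and after thinning 41.0% and 18.8%. By cluster it was at 42.1 in A, 32.8 in Cdk2-WT cells of B, 19.1 in D and 11.6 in E. Among the classes Sfrp1 was highest in stromal cells. The 10 stromal markers summed in germ cells to 198 CPM in the wild type and 410 in Cdk2-Y15S, and their part in the Sfrp1 difference was not tested. Sfrp1 stood at 14.7% of its stromal level in Cdk2-WT germ cells, above all 10 markers (1.15% to 9.34%), and at 9.01% in Cdk2-Y15S. There it was below 1 marker, Pdgfrb, at 16.4% from 4 UMIs, and above the other 9 (2.28% to 5.38%).

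Axin2 and Rspo1 went the other way on few counts, under the 50 UMIs needed for a call. Axin2 had 2 UMIs in 2 of 69 Cdk2-WT germ cells and 18 UMIs in 17 of 72 Cdk2-Y15S cells, at 1.65 and 12.8 CPM (log2 ratio 2.68, 0.90 to 6.11). The shares of cells were 2.90% (0.353% to 10.1%) and 23.6% (14.4% to 35.1%), and 1.64% and 18.8% after thinning. In cluster A none of 36 cells held an Axin2 UMI, and for the share of cells with a UMI, not of cells expressing the gene, the interval reaches 9.74%. In D 6 of 37 cells held one (6.19% to 32.0%) and in E 10 of 21 (25.7% to 70.2%). In the mixed clusters B and C there was 1 UMI in each of B Cdk2-WT, B Cdk2-Y15S and C Cdk2-WT, and none in C Cdk2-Y15S, too few to compare. The Cdk2-Y15S germ level was above that of the same library's Sertoli (6.96), myoid (4.72) and stromal cells (3.17). Axin2 ratios of Cdk2-Y15S to Cdk2-WT were above 0 in these somatic classes too. In stromal cells the ratio was log2 1.00 (0.03 to 2.13), from 12 and 31 UMIs. Myoid cells were at 0.53 (-0.58 to 1.74), also under 50 UMIs, and Sertoli cells at 0.28 (-0.19 to 0.75).

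Rspo1 had 1 UMI in the Cdk2-WT germ cells and 11 in those of Cdk2-Y15S, in 1 of 69 and 9 of 72 cells (log2 ratio 2.73, 0.47 to 8.68). Of the 11, 7 were in cluster D. That level was 23.3% of the stromal one in Cdk2-Y15S, above all 10 stromal markers there, and 2.87% in Cdk2-WT, within their range. The stromal markers were higher in Cdk2-Y15S germ cells too, as given above, and their part in the Rspo1 difference was not tested. Lef1 did not follow Axin2: its levels were 23.6 CPM in A, 21.5 in B, 39.4 in C, 27.0 in D and 21.3 in E, with overlapping intervals, and the ratio of the libraries was log2 0.15 (-0.60 to 0.92).

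Wnt6 in germ cells lay within the range of Sertoli markers, Wnt5a was above most stromal markers, and Wnt4 and Fzd1 had too few UMIs to read. Wnt6 stood at 18.1 and 25.0 CPM, 3.76% and 5.33% of its Sertoli level, within the range of the 10 Sertoli markers in germ cells (1.81% to 6.07% and 2.86% to 7.06%). Wnt5a had 10 UMIs in each library, at 8.24% and 7.94% of its stromal level. That was below Pdgfrb (9.34% from 2 UMIs and 16.4% from 4) and above the other 9 stromal markers, which reached 5.65% and 5.38%. In Cdk2-WT 5 of the 10 Wnt5a UMIs came from 2 cells of cluster C, which had the highest stromal marker level in CPM. In Cdk2-Y15S cluster C held 0. Wnt4 had 4 and 2 UMIs and Fzd1 had 1 and 2.

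Other genes of the pathway list were carried by germ cells, and those named next were chosen after their values were seen. Wnt3, a canonical ligand, was at 28.0 CPM in the wild type and 30.0 in Cdk2-Y15S germ cells, in 25 of 69 and 36 of 72 cells, and at most at 0.268 in any somatic class and library. Rspo4, another R-spondin, was at 19.0 and 28.5 in germ cells and at most at 0.787 in somatic classes. Tcf7, a partner of beta-catenin like Lef1, was at 136 and 101. Unlike Wnt3 and Rspo4, it was also high in Sertoli cells, at 92.3, 73.7 and 78.4 CPM. Of the 24 pathway genes counted in germ cells, members included, 2 were called higher in Cdk2-Y15S, where 10.2% of all genes were, and 5 lower, where 13.2% were. The higher ones were Sfrp2, a secreted inhibitor, at 64.3 and 122 CPM (log2 0.92, 0.53 to 1.33), and Dvl2, a Dishevelled protein, at 25.6 and 57.8 (log2 1.16, 0.56 to 1.82). Beside Ctnnb1 and Sfrp1, the lower ones were Tcf7l2, a TCF factor, at 42.9 and 14.3 (log2 -1.56, -2.41 to -0.82), Gsk3b (log2 -0.65) and Btrc (log2 -0.93), of the destruction machinery.

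Germ cells of Cdk2-HET are not among the authors' 141, so germ cells were also taken by their own markers, with UMIs of at least 2 of the genes Ddx4, Mael and Dazl, a choice made after seeing the data. It gave 123, 66 and 115 cells. Ctnnb1 was at 277 CPM in Cdk2-WT, 258 in Cdk2-HET and 135 in Cdk2-Y15S, so Cdk2-Y15S was the lowest of the 3. Axin2 was at 1.29, 5.81 and 12.1 CPM from 2, 5 and 21 UMIs, and Sfrp1 at 36.2, 39.5 and 15.5. Lef1 was at 23.3, 34.9 and 24.8, and Rspo1 at 0.646, 2.33 and 8.06. The stromal markers summed to 180, 684 and 589 in these cells and the Sertoli markers to 467, 692 and 443, and their part in these values was not tested.

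**Figure D4:**
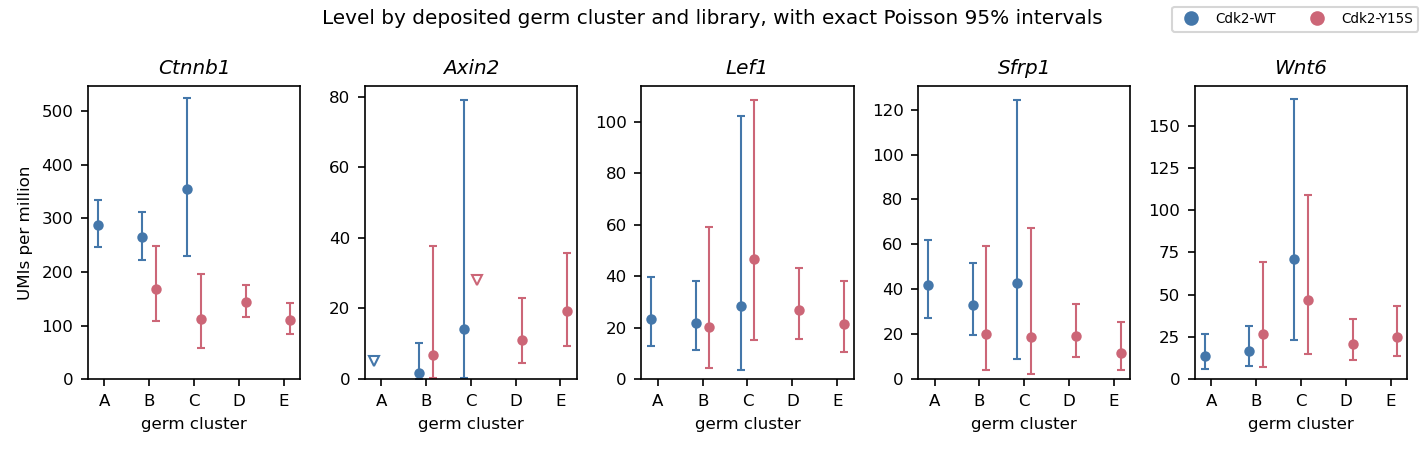
Level of Ctnnb1, Axin2, Lef1, Sfrp1 and Wnt6 in CPM on linear axes, in each deposited germ cluster; points are Cdk2-WT (blue) and Cdk2-Y15S (red) cells with exact Poisson 95% intervals, and open triangles mark the limit of 3 counts where no UMI was found. Ctnnb1 lies at 288 in A and at 110 in E, Axin2 is highest in E at 19.3, and Lef1 lies between 20.2 and 46.6 in all clusters and libraries.

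For each member the genes with the most similar pattern were found by Pearson's r of log2 CPM, with 5 added, over the 11 sums of class and library, among genes with at least 200 UMIs over them. The 11 sums share 3 libraries and 4 classes, so a high r mostly says that the same class is high. The closest were Fam65b (r = 0.992) for Wnt4, Angptl2 (0.986) for Wnt5a, Zdhhc2 (0.983) for Wnt6, Adam12 (0.988) for Rspo1 and Tril (0.994) for Sfrp1. For Rspo1, Agtr2 and Dpt came next. They were Rec114, Tex101 and Pou3f1 (each 0.999) for Lef1, Gm19705 (0.972) for Ctnnb1, H3f3a (0.976) for Fzd1 and Eif2ak4 (0.914) for Axin2.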

How the data were processed

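Single cells of testes were read with 10x Genomics 3′ version 2 chemistry, per the labels. Cell Ranger 2.1.0 and Seurat, with mm10, are named in the submitters' processing notes, while the annotation, cell calling and strand setting were not given in the sources used here. As deposited, the matrix holds raw counts of UMIs per gene and cell, and the authors' deposited germ cell table holds counts for 141 cells with their clusters.

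Somatic cells were kept with 500 or more genes and no more than 10% mitochondrial UMIs, and doublets called by Scrublet at an expected rate of 6% (88, 94 and 66 cells) were removed. All 141 germ cells were used. Outside the classes stayed 4.29%, 4.46% and 5.60% of the cells kept. Counts were summed by class and library and divided by the class total. Between classes, edgeR 4.0.16 in R 4.3.3 (quasi-likelihood test, TMM scaling, low counts filtered with filterByExpr) was run with the library as a block. Between genotypes, ratios have conditional exact binomial intervals. Levels have exact Poisson intervals and shares Clopper-Pearson intervals, and a limit for a count of 0 is that of 3 counts. The scripts were tested on simulated data. Alternatives included DESeq2 1.42.0, other cell and class limits, and thinned cells.

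The members, class limits and lists were chosen with earlier results of these data known. Named were the members, in each class comparison the 2 other pathway genes with the largest called fold each way, the 3 highest pathway genes per class, and the 3 genes most like each member. Positions are those of GENCODE M21 on GRCm38.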

Additional observations from a re-analysis of the deposited data

Results flagged for a closer look

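Lef1 stood out in cells that met none of the class rules, once fetal Leydig, endothelial and macrophage cells by marker sums were removed. In Cdk2-HET 212 cells lay outside the classes and 148 of them remained. These held Lef1 at 13.5 CPM (7.71 to 21.9), from 16 UMIs in 8 cells. That is above the limit that a count of 0 would allow (2.53 CPM). The same kind of cells held 4.90 CPM from 3 UMIs in Cdk2-WT, and 3.03 from 4 UMIs in Cdk2-Y15S. Their 6 germ markers summed to 719, 733 and 384 CPM and their endothelial markers to 65.3, 44.7 and 38.6 (wild type, heterozygote, homozygote), and the part of such cells in the Lef1 level was not tested.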

How the results depend on the processing

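Under DESeq2, other scaling, other filters, no library block and leaving out each library, no called member changed direction, and the counts called higher and lower stayed within 1.5 times of those reported, except for members higher in myoid than in stromal cells. That count, 1 as reported, was 0 with DESeq2 and without the library block, 2 with stricter class limits, and 0 to 3 when 1 library was left out (3 without Cdk2-WT, 0 without Cdk2-HET and 0 without Cdk2-Y15S). Of 240 alternative folds of single members 229 kept their call. Ctnnb1 in stromal against Sertoli cells lost its call with upper quartile scaling and with a looser cell filter (log2 -0.58 in both). Fzd1 passed the fold limit without Cdk2-Y15S (log2 0.59) there. Wnt4 (log2 0.83) and Fzd1 (log2 0.71) passed it in myoid against stromal cells without Cdk2-WT.

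Between genotypes the counts rest on few genes. With Cdk2-Y15S against Cdk2-WT, Sertoli cells had 1 member called with stricter class limits (Sfrp1, log2 -0.81) and 1 without cycling cells (Axin2, log2 0.76). Myoid cells had 2 with 10% free RNA subtracted and 0 with a 2-fold limit, with a looser cell filter and with stricter class limits. Germ cells had 1 at no more than 10% mitochondrial UMIs. With Cdk2-HET, stromal cells had 0 at a 2-fold limit and myoid cells 1 with free RNA subtracted. The Wnt4 ratios in stromal cells stayed between log2 -1.09 and -0.99 in Cdk2-Y15S and between -0.90 and -0.73 in Cdk2-HET. Thinning moved 70 of 99 shares of cells. No paired analysis was possible because each genotype has 1 library. Depth limits Lef1 in all somatic classes, Rspo1 and Wnt4 in Sertoli cells, Axin2 in stromal cells, and Axin2 and Rspo1 in myoid cells. In germ cells it limits Axin2, Rspo1, Wnt4, Wnt5a and Fzd1. All these ratios between genotypes rested on under 50 UMIs.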

Other observations

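Small groups of cells, taken by marker sums whatever their class, carried the members at their own levels. Cells that also met a class rule were not taken out, so these groups overlap the somatic classes they are set against. Fetal Leydig cells, the steroid-producing cells of the interstitium (51, 48 and 50 cells in the wild-type, heterozygous and homozygous library), held Sfrp1 at 378, 415 and 446 CPM and Wnt6 at 362, 409 and 312. Both were above the stromal levels of the same libraries, and Wnt6 was below the Sertoli level. Wnt5a was at 50.2, 32.5 and 44.6, and no Lef1 UMI was found there.

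Endothelial cells (25, 34 and 41 cells) held Ctnnb1 at 325, 421 and 420 CPM, above the level of every somatic class. Lef1 was at 25.0, 18.7 and 40.1 from 5, 4 and 15 UMIs, and Axin2 at 15, 9.35 and 16, while no Rspo1 UMI was found. These groups were small and are described without a test.

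In Sertoli cells Wnt6 differed a little with the cell cycle. Cycling cells, with at least 2 UMIs of Top2a, Mki67, Cenpf and Ube2c, held 435, 499 and 437 CPM and the others 514, 543 and 495. In stromal cells Rspo1 was at 17.3, 17.8 and 23.3 in cycling cells and 31.6, 29.1 and 35.8 in the others.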
